A study of Mus musculus with 12 samples.

Results

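The annexins are proteins that bind acidic phospholipids when calcium rises, and 10 of their mouse genes (Anxa1, Anxa2, Anxa3, Anxa4, Anxa5, Anxa6, Anxa7, Anxa8, Anxa11 and Anxa13) were followed by symbol through 5 groups of mouse liver libraries. All 10 are in the count table of 41128 genes. In each of the 2 experiments 9 had enough counts to be tested, all but Anxa13 in hepatocytes and all but Anxa8 in livers. In the first experiment, hepatocytes from around tumours (labelled peritumoral, n = 3) were set against hepatocytes of untreated mice (n = 3). Both groups carry floxed Lats1 and Lats2 alleles and are titled wild type, and the sources used here do not say whether Cre was present. The tumours grew for 8 weeks after hydrodynamic injection of plasmids for SB11 transposase (1 µg), myc-NICD, the active part of Notch (20 µg), and myr-ha-Akt, a membrane-tethered Akt (4 µg). In the second experiment, CD-1 mice had a single injection of thioacetamide (TAA), a toxin that hepatocytes around the central vein activate, and were sampled 48 h (n = 2) or 24 h (n = 2) later beside controls (n = 2). Every label gives an age of 8 weeks, which was the age at injection of the tumour mice. The series title names YAP and TAZ, the effectors of the Hippo pathway, around tumours.

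Annexins share a calcium-binding core and differ in the tail before it, which binds each member's partners. They are known for sealing torn plasma membrane, for vesicle traffic and for linking membrane to the actin cortex. In liver, Anxa6 is abundant in hepatocytes, while several other members are abundant in duct cells, macrophages and stellate cells. In bulk RNA a rise in the share of such cells and a rise of RNA per cell cannot be told apart.

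Each hepatocyte library held 16228747 to 18522324 counts and each liver library 9640845 to 13692235. Per the labels all 12 hold Percoll-purified hepatocytes, but the design text speaks of livers for TAA and control, the name used here. Hepatocyte markers (Alb, Ttr, Apoa1 and 5 more) summed to 80560 to 141000 RPM in peritumoral and 91130 to 94650 RPM in untreated hepatocytes, and to 115400 to 139000 RPM in TAA and 175700 to 180800 RPM in control livers. Peritumoral replicate 2 stood apart, with 10280 RPM of 8 biliary markers against 1113 and 775 RPM in the other peritumoral libraries, and with 528 RPM of Xist (made from the inactive X in females), against 0.183 RPM or less in the remaining 5 libraries of hepatocytes. All 6 livers also held Xist, at 196 to 456 RPM. Ddx3y, a gene of the Y chromosome, had 0 RPM in peritumoral replicate 2 and in all 6 livers. The remaining 5 libraries of hepatocytes held 59.65 to 75.52 RPM of it. By Xist and Ddx3y, peritumoral replicate 2 and the livers read as female and the other hepatocyte libraries as male. Untreated replicate 3 stood apart from the other untreated libraries over all genes and not only by its lower levels of several annexins, given below. The chi-square per degree of freedom over genes was 127 and 123 between it and untreated replicates 1 and 2, against 15.8 between those. The labels do not say how many animals a group had, so each p-value reflects spread between libraries, which may be technical. Levels are TMM-scaled CPM (counts scaled by library size), scaled within each experiment, changes are log2 fold changes ± SE, and calls are edgeR quasi-likelihood adjusted p under 0.05.

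The family as a whole took 0.0572%, 0.109% and 0.0509% of counts in peritumoral hepatocytes, against 0.0881%, 0.0864% and 0.0375% in untreated hepatocytes. These ranges overlapped. In livers the share was 0.130% and 0.122% at 48 h and 0.0790% and 0.0854% at 24 h after TAA, against 0.0311% and 0.0227% in controls. Every TAA library lay above both controls. On the TMM scale the family summed to 1013 to 1035 CPM at 48 h and 727 to 805 CPM at 24 h, against 303 to 411 CPM in controls. That gap was narrower than the gap by share of counts, and the TAA libraries still lay above both controls. The sums were 526 to 840 CPM in peritumoral and 478 to 905 CPM in untreated hepatocytes. The difference between the experiments in this total was not tested.

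**Figure D1:**
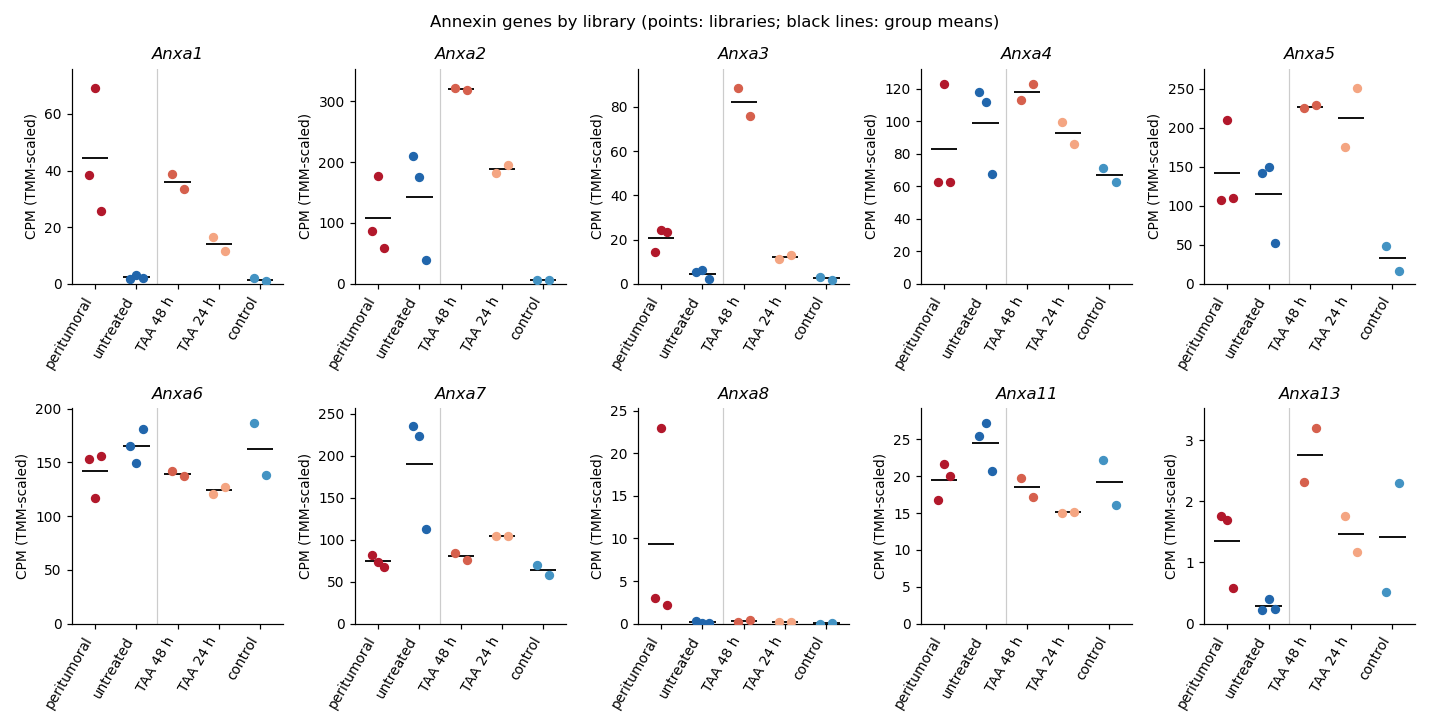
TMM-scaled CPM (y axes, linear, from 0) of the 10 annexins in each of the 12 libraries (points) by group (x axes), with group means as black lines and the 2 experiments parted by a grey line. Anxa1 and Anxa3 were high in peritumoral hepatocytes and after TAA, Anxa2 and Anxa5 were lowest in control livers, and Anxa8 was high in peritumoral replicate 2.

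In peritumoral hepatocytes 3 of the 9 tested annexins rose (Anxa1, Anxa3 and Anxa8), 1 fell (Anxa7) and 5 did not pass. Over all 13442 genes tested, 19.0% were called higher and 10.2% lower, so 1 of 9 lower is near the background and 3 of 9 higher is not far above it. Of these 3, Anxa8 passed the count filter only through its peritumoral counts, so the filter itself favoured a call of higher for it. The median log2 fold change was -0.22 over the annexins and -0.02 over all tested genes. After TAA 5 of 9 tested annexins rose at 48 h and 6 of 9 at 24 h, and none fell by edgeR at either time. None passed as lower at an unadjusted p under 0.05 at 48 h and 1, Anxa6, did at 24 h, and DESeq2 called 0 lower at both. Over all 13497 genes, 25.0% were called higher and 23.9% lower at 48 h, and 21.3% higher and 20.5% lower at 24 h. The median over the annexins was 0.96 at 48 h and 0.70 at 24 h, against -0.03 and 0.02 over all tested genes. With library totals in place of TMM factors the median of all genes moved to 0.68 at 48 h, 0.53 at 24 h and 0.23 in peritumoral hepatocytes. At 48 h 9 of 9 tested annexins were then called higher, as were most of the 13497 genes, so that count is not a result about the annexins.

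**Figure D2:**
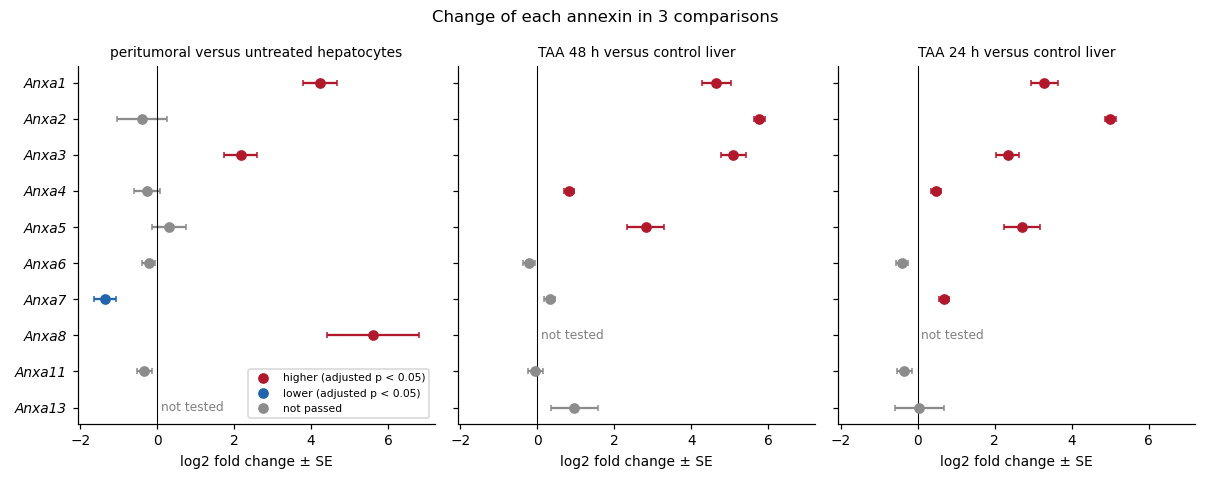
Log2 fold change ± SE (x axes) of each annexin (rows) in the 3 comparisons with an untreated or control group, red where called higher, blue where called lower and grey where the test was not passed. Anxa1 and Anxa3 were red in all 3 panels, Anxa2 only in the 2 TAA panels (log2 5.77 and 5.01), and Anxa7 was blue in peritumoral hepatocytes (-1.35).

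Anxa1, also known as lipocortin, is induced by glucocorticoids and signals through formyl peptide receptors to damp inflammation. It lies on the minus strand at chr19:20373428-20390944 (GRCm38). Peritumoral hepatocytes held 38.5, 69.0 and 25.6 CPM, against 1.85, 3.02 and 2.20 CPM in untreated hepatocytes. Each peritumoral library stood far above all untreated ones, and the change was 4.23 ± 0.44, or 18.8-fold (adjusted p = 0.00327). Without peritumoral replicate 2 it was 3.80. In livers Anxa1 stood at 38.7 and 33.6 CPM at 48 h and 16.7 and 11.6 CPM at 24 h, against 1.96 and 0.902 CPM in controls. The groups did not overlap at either time. The change was 4.65 ± 0.37 at 48 h (adjusted p = 0.000329) and 3.30 ± 0.36 at 24 h (adjusted p = 0.00111), and leaving out any 1 liver kept both calls, with values of 4.15 to 5.26 and 2.83 to 3.94. The peritumoral change of Anxa1 minus its TAA 48 h change was -0.51 ± 0.61, which did not pass (adjusted p = 0.594) and does not show that the changes were equal.

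The RefSeq promoter window of Anxa1 (250 bases before its start, GRCm38.p6) held the TEAD letters GGAATG on the opposite strand 236 bases before the start and TATAAA 32 bases before it. TEAD proteins carry YAP and TAZ to DNA, which is why those letters were searched. Since annotated exons of GENCODE release M21 cover the whole window, only the matches are shown, in capitals with 10 bases on either side, from chr19:20390892-20390917 and chr19:20390688-20390713 and written 5′ to 3′ on the minus strand.
Anxa1 TEAD letters: tgcactgaacCATTCCtgtgaggaat
Anxa1 TATA letters: gttcatatccTATAAAatcaggagtc

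On either strand, GGAATG is found in 12.6% and TATAAA in 12.4% of 32851 promoter windows of the same length, so neither is rare. A match of letters is a description and not a bound site.

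Anxa2 behaved otherwise. It forms a complex with S100a10 that gathers plasminogen and its activator on the cell surface, and it binds the scaffold protein Ahnak. Its gene lies on the plus strand at chr9:69453620-69491795. Livers held 321 and 318 CPM at 48 h and 182 and 195 CPM at 24 h, against 6.29 and 5.41 CPM in controls. The TAA libraries all lay far above the controls, and the replicates lay close together. These were the changes with the smallest adjusted p in the family: 5.77 ± 0.15, or 54.6-fold, at 48 h (adjusted p = 5.77e-05) and 5.01 ± 0.14, or 32.1-fold, at 24 h (adjusted p = 0.000119). In hepatocytes Anxa2 was high in both groups, at 87.5, 178 and 58.3 CPM in peritumoral and 210.2, 176 and 39.7 CPM in untreated libraries. These ranges overlapped and the change of -0.40 ± 0.64 did not pass (adjusted p = 0.679). The untreated hepatocytes thus held many more Anxa2 reads than the control livers, a difference that was not tested because stock, preparation and Xist status differ along with it.

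The promoter window of Anxa2 held the AP-1 letters TGANTCA 95 bases before the RefSeq start and TATAAA 17 bases before it. AP-1 dimers of Fos and Jun proteins are known to bind such letters in genes that respond to injury. The part of the window outside annotated exons is chr9:69453433-69453619 (GRCm38.p6, plus strand, from 250 to 64 bases before the start), with the AP-1 letters in capitals.
Anxa2 promoter stretch: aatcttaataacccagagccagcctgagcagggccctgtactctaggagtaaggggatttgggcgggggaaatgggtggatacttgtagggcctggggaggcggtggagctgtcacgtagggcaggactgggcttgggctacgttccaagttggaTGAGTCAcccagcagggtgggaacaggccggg

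AP-1 letters occur in 6.75% of all windows. Of the 7 members with a RefSeq window (Anxa1, Anxa2, Anxa4, Anxa5, Anxa7, Anxa8 and Anxa11), Anxa2 alone held them and Anxa1 alone held the TEAD letters, while the CCAAT letters (33.8% of windows) and the serum response element (1.47%) were found in none. Outside the listed members, the window of Anxa10, which had 0 counts in all 12 libraries, also held AP-1 letters, at 180 and 16 bases before its start. No AP-1 letters were found in the windows of Anxa9. Anxa3, Anxa6 and Anxa13 have no entry in the promoter table used.

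Anxa3 (chr5:96793339-96845966, plus strand), an annexin abundant in neutrophils, moved in all 3 comparisons. Peritumoral hepatocytes held 14.4, 24.4 and 23.4 CPM, against 5.49, 6.11 and 2.12 CPM in untreated hepatocytes, so that the groups did not overlap. The change was 2.17 ± 0.43 (adjusted p = 0.0130), and without untreated replicate 1 it no longer passed (adjusted p = 0.0527). Livers held 88.3 and 75.7 CPM at 48 h and 11.2 and 13.2 CPM at 24 h, against 3.20 and 1.60 CPM in controls. Anxa3 was thus high at 48 h and modest at 24 h, with changes of 5.09 ± 0.32 at 48 h (adjusted p = 0.000197) and 2.35 ± 0.30 at 24 h (adjusted p = 0.00177). It had the largest difference between the times, 2.74 ± 0.28 at 48 h over 24 h (adjusted p = 0.0114).

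Anxa5 (chr3:36448923-36475894, minus strand), whose protein binds the phosphatidylserine that dying cells expose, stood at 226 and 229 CPM at 48 h and 175 and 251 CPM at 24 h, against 48.3 and 16.5 CPM in controls. All TAA libraries exceeded both controls, though the controls differed from each other. The change was 2.81 ± 0.47 at 48 h (adjusted p = 0.00350) and 2.72 ± 0.47 at 24 h (adjusted p = 0.00534). With each liver left out in turn it ran from 2.19 to 3.74 at 48 h and from 2.13 to 3.68 at 24 h, lowest without control replicate 2 and highest without control replicate 1. In hepatocytes Anxa5 stood at 108, 209 and 109 CPM in peritumoral and 142, 150 and 52.7 CPM in untreated libraries. The ranges overlapped, with a change of 0.31 ± 0.44 (adjusted p = 0.640). Peritumoral replicate 2 was high and untreated replicate 3 low for Anxa2, Anxa4 and Anxa5 alike.

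Anxa4 (chr6:86736840-86793584, minus strand), an annexin of secretory epithelia, showed a small rise after TAA. It stood at 113 and 123 CPM at 48 h and 99.8 and 86.1 CPM at 24 h, against 71.5 and 62.7 CPM in controls. The change was 0.81 ± 0.13 at 48 h (adjusted p = 0.00309) and 0.47 ± 0.13 at 24 h (adjusted p = 0.0292), and the 24 h call was lost without TAA 24 h replicate 1 (adjusted p = 0.153), control replicate 2 (0.120), TAA 48 h replicate 1 (0.0543) or TAA 48 h replicate 2 (0.0538). With all 12 libraries in the fit neither the 48 h call (adjusted p = 0.0790) nor the 24 h call (0.246) was made. In hepatocytes the values were 62.5, 123 and 62.6 CPM in peritumoral and 118, 112 and 67.3 CPM in untreated libraries, with a change of -0.26 ± 0.34 that did not pass (adjusted p = 0.606).

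Anxa7, or synexin (chr14:20455260-20480133, minus strand), promotes the fusion of secretory granules in the presence of calcium and binds sorcin (Sri). Peritumoral hepatocytes held 82.2, 73.5 and 67.9 CPM, against 235, 223 and 112 CPM in untreated hepatocytes. All 3 peritumoral libraries lay below all 3 untreated ones, and the change was -1.35 ± 0.29 (adjusted p = 0.0174). That call was lost without untreated replicate 1 (adjusted p = 0.0842) or 2 (0.0668), without peritumoral replicate 2 (0.0518) or 3 (0.0567), with library totals in place of TMM factors (0.0648) and with limma on log2(RPM + 0.5) (0.117) or log2(RPM + 0.1) (0.0950), while the value ran from -1.63 to -1.16 over the libraries left out. In livers Anxa7 stood at 84.1 and 76.3 CPM at 48 h and 105 and 104 CPM at 24 h, against 70.3 and 58.5 CPM in controls. It rose at 24 h by 0.70 ± 0.13 (adjusted p = 0.00731), a call that was lost with all 12 libraries in the fit (adjusted p = 0.0884), and its change of 0.32 ± 0.13 at 48 h did not pass (adjusted p = 0.0863).

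Anxa8 (chr14:34085981-34100571, plus strand), known from stratified epithelia, was nearly absent outside the peritumoral group. Peritumoral libraries held 3.03, 22.9 and 2.20 CPM from 50, 552 and 38 counts, against 0.347, 0.116 and 0.0787 CPM from 6, 2 and 1 counts in untreated libraries. The groups did not overlap, and most peritumoral reads came from replicate 2. The change was 5.60 ± 1.19 (adjusted p = 0.0160), and without peritumoral replicate 2 it was 3.77 and still called. Without untreated replicate 2 (adjusted p = 0.0729) or 3 (adjusted p = 0.0578) it did not pass. Anxa8 had too few untreated counts for the count filter and was tested only through its peritumoral counts. A call of lower was thus hardly possible, and the call of higher carries little weight. Livers held at most 7 counts in a library, too few to be tested. The 250 bases before its RefSeq start lie outside annotated exons, at chr14:34085729-34085978 (GRCm38.p6, plus strand). They are shown because this gene had the largest fitted peritumoral change of the family and its window held none of the 5 motifs.
Anxa8 promoter: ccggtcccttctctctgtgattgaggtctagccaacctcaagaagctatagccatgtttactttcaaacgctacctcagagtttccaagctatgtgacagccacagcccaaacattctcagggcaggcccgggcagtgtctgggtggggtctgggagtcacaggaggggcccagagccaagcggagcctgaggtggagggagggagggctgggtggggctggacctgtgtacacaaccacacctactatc

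Anxa6 (chr11:54979108-55033445, minus strand), a large annexin with a doubled core that is known for late endosomes and cholesterol, did not pass in any comparison. It stood at 153, 117 and 156 CPM in peritumoral and 165, 149 and 181 CPM in untreated hepatocytes, with a change of -0.22 ± 0.18 (adjusted p = 0.384). Livers held 142 and 137 CPM at 48 h and 121 and 127 CPM at 24 h, against 187 and 139 CPM in controls. Its changes of -0.22 ± 0.16 at 48 h (adjusted p = 0.278) and -0.39 ± 0.16 at 24 h (adjusted p = 0.0851) did not pass. Without control replicate 2 both were called lower, at -0.47 for 48 h (adjusted p = 0.0308) and -0.61 for 24 h (adjusted p = 0.0180). Anxa11 (chr14:25842156-25886804, plus strand), which binds Pdcd6 and links RNA granules to lysosomes, stood at 16.8, 21.7 and 20.0 CPM in peritumoral and 25.5, 27.2 and 20.8 CPM in untreated hepatocytes (change -0.33 ± 0.18, adjusted p = 0.219). In livers it held 19.8 and 17.2 CPM at 48 h and 15.1 and 15.2 CPM at 24 h, against 22.3 and 16.1 CPM in controls, with changes of -0.05 ± 0.19 at 48 h (adjusted p = 0.834) and -0.34 ± 0.19 at 24 h (adjusted p = 0.191). The direction of Anxa6 and Anxa11 depended on scaling at both times. With library totals alone the 48 h changes were 0.49 for Anxa6 and 0.66 for Anxa11, under the median of 0.68 that all genes then had, and the 24 h changes were 0.12 and 0.17, under a median of 0.53. Near-copies (Gm2260 and Gm2274) hold 14.6% of the 50-base stretches of Anxa11 transcripts, and with its antisense gene Anxa11os 16.2%, so its counts are uncertain, although both copies had 0 counts in all 12 libraries.

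Anxa13 (chr15:58341471-58389244, minus strand), of epithelia such as gut and kidney and annotated as a processed transcript, was low in every group. It stood at 1.76, 1.70 and 0.578 CPM in peritumoral and 0.231, 0.407 and 0.236 CPM in untreated hepatocytes, where its counts were too low to be tested though the groups did not overlap. Livers held 2.31 and 3.20 CPM at 48 h and 1.76 and 1.17 CPM at 24 h, against 0.516 and 2.31 CPM in controls. The controls disagreed with each other, and neither change passed (0.96 ± 0.60 at 48 h, adjusted p = 0.227, and 0.05 ± 0.63 at 24 h, adjusted p = 0.961). Without control replicate 2 the 48 h change was 2.36 and was called (adjusted p = 0.0280). The other mouse annexins of the table were Anxa9 and Anxa10. Anxa9 stood at 2.54, 13.5 and 2.02 CPM in peritumoral and 1.39, 2.27 and 1.02 CPM in untreated hepatocytes (1.95 ± 0.79, adjusted p = 0.110) and rose after TAA by 1.41 at 48 h (adjusted p = 0.0292) and 1.91 at 24 h (adjusted p = 0.0110). Anxa10 had 0 counts in all 12 libraries, where 3 counts, the limit that a count of 0 allows, correspond to between 0.162 and 0.311 RPM.

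Because longer transcripts gather more reads, the order of the members within a library was taken per kb of exon. In peritumoral hepatocytes the level was 91.4 ± 53.7 RPM per kb for Anxa5, 52.0 ± 0.648 for Anxa6, 33.6 ± 24.9 for Anxa2, 20.4 ± 12.2 for Anxa4, 17.6 ± 11.8 for Anxa1 and 13.6 ± 2.50 for Anxa7 (SD, n = 3), with Anxa3, Anxa8, Anxa11 and Anxa13 at 6.31 or less. The spreads of neighbours among these first 6 met. Within every peritumoral library Anxa5 lay above Anxa6, Anxa2 above Anxa4 and Anxa4 above Anxa1. Anxa6 and Anxa2, and Anxa1 and Anxa7, changed order between libraries. In untreated hepatocytes Anxa5 (62.4 ± 34.2), Anxa6 (51.8 ± 3.32), Anxa2 (37.2 ± 25.2), Anxa7 (30.3 ± 13.6) and Anxa4 (20.2 ± 7.68) led, again with spreads that met, and Anxa1 was at 0.757 ± 0.263. Within every untreated library Anxa6 lay above Anxa2 and Anxa7 above Anxa4, while Anxa5 and Anxa6, and Anxa2 and Anxa7, changed order. At 48 h after TAA the order was Anxa5 (158 ± 3.08), Anxa2 (106 ± 3.85) and Anxa6 (58.7 ± 3.05), each apart from the next by more than its spread (SD, n = 2). At 24 h it was Anxa5 (128 ± 30.4), Anxa2 (54.2 ± 1.84) and Anxa6 (45.4 ± 0.965). Control livers had another order, with Anxa6 (41.9 ± 9.10) above Anxa5 (13.8 ± 9.61), Anxa4 (10.9 ± 1.08) and Anxa7 (8.11 ± 1.11), and Anxa2 at 1.18 ± 0.134.

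As shares of the family per kb, Anxa6 made up 13.9% ± 0.179 at 48 h and 16.1% ± 1.30 at 24 h after TAA, against 52.1% ± 2.61 in controls (SD, n = 2 each). Anxa2 made up 25.1% ± 0.0673 at 48 h and 19.3% ± 1.31 at 24 h, against 1.49% ± 0.231 in controls. In hepatocytes Anxa1 made up 6.70% ± 1.58 of the peritumoral and 0.394% ± 0.148 of the untreated family, and Anxa7 5.97% ± 1.61 and 14.2% ± 0.878 (SD, n = 3 each). A share falls when other members rise, so the lower share of Anxa6 after TAA stands beside a level whose change did not pass. The order depended on the length used. With the longest transcript in place of all exons, Anxa2 and not Anxa5 came first at 48 h, at 172.9 against 162 RPM per kb. In untreated hepatocytes Anxa7 (62.5) then came second, between Anxa5 (64.1) and Anxa6 (61.0), and in control livers Anxa5 (14.1) came after Anxa6 (49.3), Anxa4 (19.3) and Anxa7 (16.7).

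**Figure D3:**
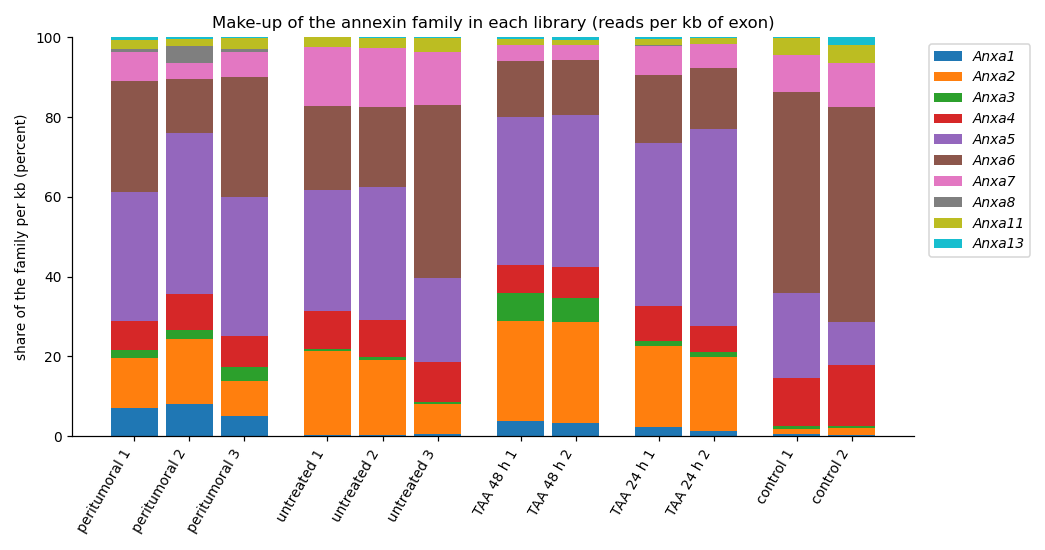
Share of each annexin in the family, in reads per kb of exon (y axis, percent), for each library (x axis), as stacked bars. Anxa6 held 13.8% to 17.1% of the family after TAA and 50.2% and 53.9% in control livers, and Anxa1 held 4.98% to 8.09% in peritumoral and at most 0.533% in untreated hepatocytes.

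The time after TAA was then compared directly. At 48 h over 24 h, Anxa1 (1.35 ± 0.30, adjusted p = 0.0469), Anxa2 (0.76 ± 0.12, adjusted p = 0.0232) and Anxa3 (2.74) were higher, 0 of 9 were lower by edgeR, and 6 did not pass. Over all genes 4.96% were called higher and 2.36% lower. Anxa4 (0.34 ± 0.13) and Anxa7 (-0.38 ± 0.13) had unadjusted p of 0.0367 and 0.0238. Both libraries of a group are needed for these calls: leaving out a TAA library ended all 3, except that Anxa3 held without TAA 48 h replicate 2 (2.85). With all 12 libraries in the fit Anxa1 (adjusted p = 0.192) and Anxa2 (0.658) did not pass, and Anxa1 did not without a count filter (0.0592) or with limma on log2(RPM + 0.1) (0.0532).

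Whether the peritumoral change differs from that after TAA was asked in a fit of all 12 libraries, as the difference of the changes (peritumoral over untreated, minus TAA over control). Anxa2 had the largest difference, -6.28 ± 0.94 against TAA 48 h (adjusted p = 0.00676) and -5.55 ± 0.92 against TAA 24 h (adjusted p = 0.00713). Anxa5 differed by -2.60 ± 0.75 (adjusted p = 0.0448) and -2.54 ± 0.75 (adjusted p = 0.0392), and Anxa7 by -1.75 ± 0.41 (adjusted p = 0.0240) and -2.17 ± 0.41 (adjusted p = 0.00949). Anxa3 differed from the 48 h change alone, by -3.01 ± 0.62 (adjusted p = 0.0177), while its difference from the 24 h change was -0.30 ± 0.62 (adjusted p = 0.762). With each library left out in turn, Anxa2 passed every time in both differences and Anxa7 in that from 24 h. The difference of Anxa5 from 48 h passed only without untreated replicate 3 (-2.96) or peritumoral replicate 2 (-3.01), and that from 24 h only without these (-2.90 and -2.96) or control replicate 1 (-3.42). Without control replicate 2, where the Anxa5 values were -1.96 and -1.89, the adjusted p was 0.151 for 48 h and 0.135 for 24 h. The Anxa5 call was also lost without a count filter for 48 h (adjusted p = 0.0536), and for 24 h with library totals (0.0547) or limma on log2(RPM + 0.5) (0.0575). The difference from 48 h was lost for Anxa7 without either TAA 48 h library, either control or untreated replicate 1 (-1.82 to -1.55, adjusted p 0.0570 to 0.0861), and for Anxa3 without TAA 48 h replicate 1 (-2.87, adjusted p = 0.0608) or control replicate 2 (-2.55, adjusted p = 0.0715). Over all members, 4 of 10 were lower against 48 h, where 8.57% of 14615 genes were called lower and 6.71% higher, and 3 of 10 against 24 h, where 12.1% were lower and 9.03% higher. No member was called higher in either, by edgeR, at an adjusted or an unadjusted p under 0.05, and DESeq2 called 0 higher. Stock, preparation and Xist status differ between the experiments and cannot be told apart from the kind of injury.

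**Figure D4:**
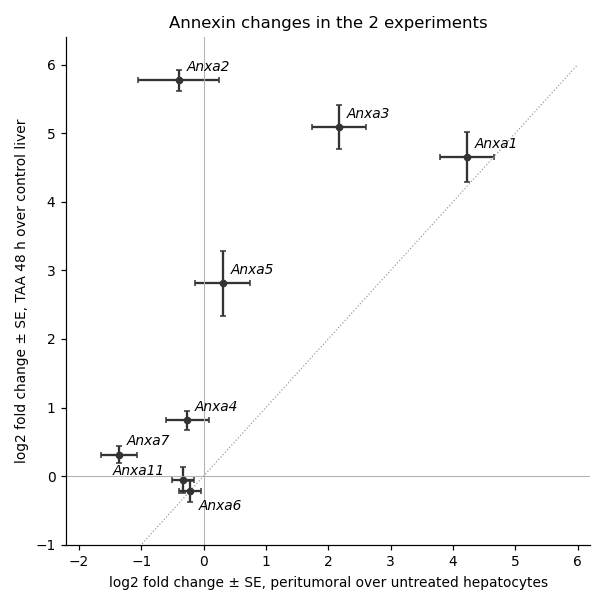
Log2 fold change ± SE of each annexin tested in both experiments, peritumoral over untreated hepatocytes (x axis) against TAA 48 h over control liver (y axis), with equality as a dotted line. Anxa1 (4.23 and 4.65) lies near the line, Anxa2 (-0.40 and 5.77) and Anxa5 (0.31 and 2.81) lie far above it.

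Known partners of annexins were read from a list of 16 genes, of which 15 were tested: S100 proteins that dock on annexin tails, Ahnak, plasminogen and its activators and receptor, formyl peptide receptors, cytosolic phospholipase A2 and others. Of these 15, 5 rose in peritumoral hepatocytes (19.0% of all genes did) and 0 were called lower by edgeR, while 1, S100a10 (-0.77 ± 0.26), was lower at an unadjusted p under 0.05. After TAA 10 rose at 48 h and 9 at 24 h (25.0% and 21.3% of all genes), and 1, Plg, the plasminogen made by hepatocytes, fell at both times. In each control liver S100a4, S100a6, Plaur, Plat, Pla2g4a and Fpr2 had fewer than 10 counts. They passed the count filter through their TAA counts, so for them the filter itself favoured a call of higher. The counts of partners that rose after TAA therefore carry less weight beside the share of all genes. The medians of the list were 1.31 in peritumoral hepatocytes, 2.36 at 48 h and 2.12 at 24 h, against -0.02, -0.03 and 0.02 over all tested genes.

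The receptors of Anxa1 and its enzyme target rose with it in peritumoral hepatocytes. Fpr1 stood at 9.09, 8.79 and 25.1 CPM in peritumoral, against 2.08, 1.51 and 0.944 CPM in untreated hepatocytes (3.22 ± 0.54, adjusted p = 0.00826), and Fpr2 rose by 2.44 ± 0.62 (adjusted p = 0.0289). Pla2g4a, the cytosolic phospholipase A2 that Anxa1 inhibits, stood at 7.39, 13.9 and 13.5 CPM in peritumoral, against 1.39, 1.16 and 1.26 CPM in untreated hepatocytes (3.19 ± 0.33, adjusted p = 0.00328). S100a4, which binds Anxa2, rose by 2.07 ± 0.50 (adjusted p = 0.0254). After TAA, where Anxa1 rose at both times, the receptors rose at 48 h (Fpr1 by 2.09 ± 0.49, adjusted p = 0.0125, and Fpr2 by 2.09 ± 0.58, adjusted p = 0.0236) and did not pass at 24 h (Fpr1 0.14 ± 0.54, adjusted p = 0.858, and Fpr2 0.55 ± 0.65, adjusted p = 0.524). Pla2g4a rose by 3.67 ± 0.34 at 48 h (adjusted p = 0.000468) and 2.81 ± 0.35 at 24 h (adjusted p = 0.00169).

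In livers S100a11, S100a6 and Ahnak had the 3 smallest p of the list at both times. S100a11, the partner of Anxa1, stood at 69.4 and 79.6 CPM at 48 h and 20.4 and 27.9 CPM at 24 h, against 1.75 and 1.40 CPM in controls (5.55 ± 0.24 at 48 h, adjusted p = 0.000113, and 3.93 ± 0.23 at 24 h, adjusted p = 0.000312). S100a6 stood at 49.6 and 60.2 CPM at 48 h and 5.07 and 6.67 CPM at 24 h, against 0.825 and 0.501 CPM in controls (6.35 ± 0.29 and 3.13 ± 0.28). Ahnak stood at 75.3 and 69.4 CPM at 48 h and 16.5 and 22.9 CPM at 24 h, against 4.54 and 4.51 CPM in controls (4.00 ± 0.20 and 2.12 ± 0.19). All 3 were also higher at 48 h than at 24 h. S100a4 rose by 5.29 ± 0.49 at 48 h, with 49 and 70 counts against 1 count in each control, so the size of its change is uncertain. Plaur, the urokinase receptor, rose by 6.07 ± 0.63 at 48 h and 5.78 ± 0.63 at 24 h, with 0 and 5 counts in the controls. Plat, the tissue activator of plasminogen, chosen after its values were seen, stood at 29.4 and 41.8 CPM at 48 h and 8.08 and 21.0 CPM at 24 h, against 0.206 and 0.401 CPM (2 and 4 counts) in controls. Its fitted change of 6.82 ± 0.64 was the largest of the list at 48 h (adjusted p = 0.000459), and at 24 h its 5.53 ± 0.64 came after that of Plaur (adjusted p = 0.00126). S100a10, chosen after its values were seen because it is the dedicated partner of Anxa2, changed far less than Anxa2: it stood at 107 and 124 CPM at 48 h and 130 and 153 CPM at 24 h, against 87.8 and 41.5 CPM in controls. It passed at 24 h (1.13 ± 0.32, adjusted p = 0.0308) and not at 48 h (0.84 ± 0.32, adjusted p = 0.0695).

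**Figure D5:**
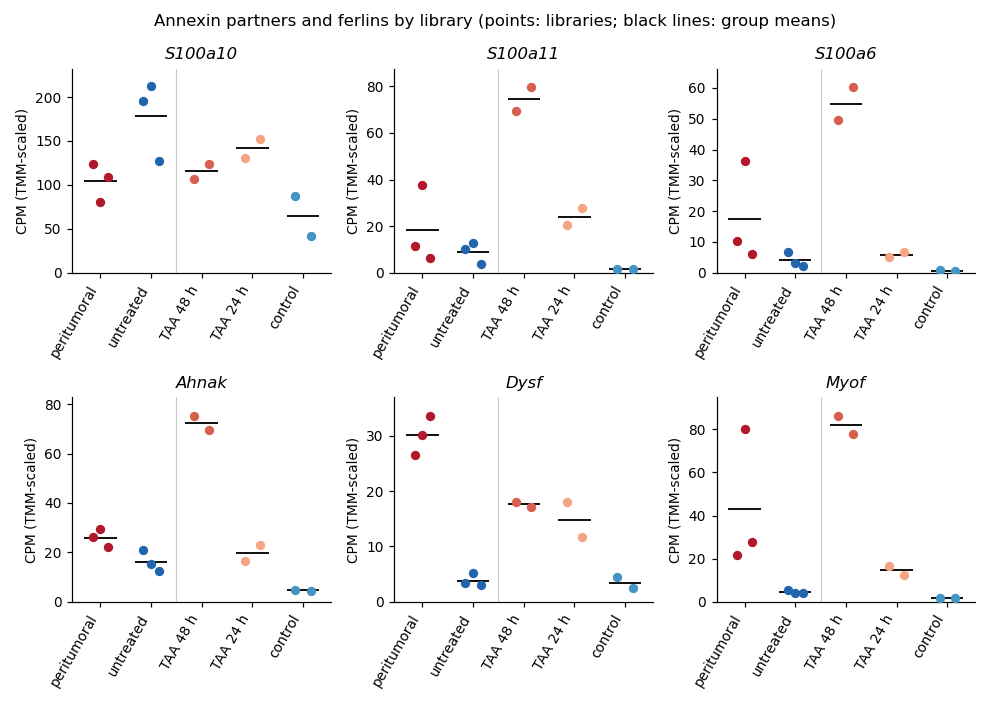
TMM-scaled CPM (y axes, linear, from 0) of 4 annexin partners and the ferlins Dysf and Myof in each library (points) by group (x axes), with group means as black lines. S100a11, S100a6 and Ahnak were highest at 48 h after TAA, Dysf was highest in peritumoral hepatocytes, and S100a10 was high in untreated hepatocytes (127 to 213 CPM).

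Membrane repair genes outside the family were read from a list of 12, of which 11 were tested and 1, Dysf, is also on the partner list. In peritumoral hepatocytes 2 of 11 rose, a share near the 19.0% of all genes, both of them ferlins, large calcium sensors that patch membrane together with annexins. Dysf (dysferlin) stood at 26.5, 30.1 and 33.6 CPM in peritumoral, against 3.29, 5.12 and 3.07 CPM in untreated hepatocytes (2.97 ± 0.26, adjusted p = 0.00267). Myof (myoferlin) stood at 21.6, 80.2 and 27.7 CPM, against 5.26, 4.01 and 4.01 CPM (3.28 ± 0.53, adjusted p = 0.00752). Capn2, a calpain protease (-0.76 ± 0.24, adjusted p = 0.0520), and Pdcd6ip, the ESCRT adaptor ALIX (-0.47 ± 0.16, adjusted p = 0.0639), did not pass. After TAA 6 of 11 rose and 1 fell (Vps4b) at 48 h, and 6 rose and 2 fell (Vps4b and Vps4a, ESCRT ATPases) at 24 h, where 25.0% and 21.3% of all genes were called higher at 48 h and 24 h. Myof stood at 86.1 and 78.0 CPM at 48 h and 16.6 and 12.5 CPM at 24 h, against 1.55 and 1.80 CPM in controls (5.60 ± 0.22, adjusted p = 0.000113, and 3.11 ± 0.20, adjusted p = 0.000388). At 48 h and 24 h Dysf rose by 2.36 ± 0.34 and 2.12 ± 0.34, Sdcbp (syntenin) by 1.19 ± 0.14 and 0.89 ± 0.13, and Capns1, the small calpain subunit, by 0.92 ± 0.11 and 0.62 ± 0.11. The list's medians were 0.08 in peritumoral hepatocytes, 0.39 at 48 h and 0.57 at 24 h, against -0.02, -0.03 and 0.02 over all tested genes.

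The genes most like each of 4 annexins over the 12 libraries were taken as those with the smallest root mean square (RMS) difference of centred log2 CPM, among 14614 genes. For Anxa1 they were Fstl1 (0.33), Adamts9 (0.45) and Sparc (0.46). Fstl1 stood at 72.7, 166 and 38.3 CPM in peritumoral and 3.46, 4.25 and 3.23 CPM in untreated hepatocytes, and at 50.9 and 54.6 CPM at 48 h and 15.5 and 21.5 CPM at 24 h, against 2.48 and 1.80 CPM in control livers. For Anxa2 they were Cd63 (0.35), Mcm2 (0.63) and Sh3pxd2b (0.71), and Cd63 stood at 16.3, 57.8 and 11.2 CPM in peritumoral and 52.9, 54.0 and 9.75 CPM in untreated hepatocytes. For Anxa5 they were Unc5b (0.36), Tnfrsf10b (0.39) and Zbtb45 (0.44). For Anxa6, which varied little, they were Sptlc1, Epn1 and Pcsk7, at 0.09 to 0.10. The libraries share 2 experiments and 5 groups, so likeness over 12 libraries is a description.

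Markers of other cells moved with these results. In peritumoral hepatocytes 5 of 7 tested biliary markers, 6 of 7 macrophage, 7 of 7 neutrophil and 8 of 8 endothelial markers were higher. So were 6 of 8 stellate and fibroblast and 4 of 4 mesothelial markers, while 0 of 8 hepatocyte markers passed in either direction. Over all genes tested there, 19.0% were called higher and 10.2% lower. Summed levels in peritumoral and untreated hepatocytes were 775 to 10280 and 50.6 to 73.6 RPM for biliary, 1051 to 2740 and 178 to 282 RPM for macrophage, 976 to 1515 and 169 to 293 RPM for endothelial, 698 to 2439 and 46.5 to 114 RPM for stellate, 20.2 to 188 and 0.555 to 1.07 RPM for mesothelial and 18.0 to 39.5 and 1.29 to 3.26 RPM for neutrophil markers. In untreated hepatocytes Mpo (neutrophil) and Upk1b (mesothelial) had 0 counts, so both could be tested only through their peritumoral counts. For markers this low in untreated hepatocytes the count filter itself favoured a call of higher. The 7 of 7 neutrophil and 4 of 4 mesothelial markers therefore carry little weight as counts. In livers 8 of 8 stellate and 7 of 7 macrophage markers were higher at 48 h, as were 7 of 8 and 4 of 7 at 24 h. Of 8 hepatocyte markers, 4 were lower at 48 h and 3 at 24 h. Over all genes tested in livers, 25.0% were called higher and 23.9% lower at 48 h, and 21.3% and 20.5% at 24 h. The 3 of 8 hepatocyte markers at 24 h are thus not far above the share of all genes. Stellate markers summed to 1473 and 2097 RPM at 48 h and 468 and 426 RPM at 24 h, against 128 and 79.6 RPM in controls, and macrophage markers to 950 and 648 RPM at 48 h and 346 and 261 RPM at 24 h, against 84.2 and 42.4 RPM. Endothelial markers were higher in 6 of 8 at 48 h and 5 of 8 at 24 h, and summed to 445 to 601 RPM at 48 h and 373 to 497 RPM at 24 h, against 137 to 169 RPM in controls. Of 6 biliary markers tested in livers, 2 were higher, not far above the 25.0% of all genes, and 1 was lower at 48 h. At 24 h 4 were higher. Biliary sums were 208 to 309 RPM at 48 h and 147 to 164 RPM at 24 h, against 59.1 to 64.2 RPM in controls. Of 3 mesothelial markers tested, 2 were higher at 48 h and 1 at 24 h. All 7 neutrophil markers had 0 counts in control livers, and they summed to at most 6.71 RPM after TAA. The part of these cells in the annexin changes was not tested.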

How the data were processed

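Polyadenylated RNA of 12 libraries was sequenced with a stranded mRNA kit, per the labels' protocols. The authors deposited raw counts per gene for 41128 genes, the input of every test, and a table of RPM values (counts scaled by library total) for 17311 genes. STAR and DESeq2, with mm10 and GRCm38, stand in the submitters' processing notes without versions or roles, and the sources used here name neither the annotation nor the strand setting of the counting, so antisense or overlapping genes may share reads. Of the RPM values 100% came out as whole reads (within 0.001 of a read). Replicates differed by more than sampling noise, so none was the same library sequenced again. Whether replicates came from different animals cannot be told from this.

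Counts were tested with edgeR 4.0.16 in R 4.3.3 (two-sided quasi-likelihood test, TMM factors, genes kept by filterByExpr at 10 counts in a library and 15 in all, p-values adjusted by Benjamini-Hochberg over all genes tested). The 6 hepatocyte libraries formed 1 fit (13442 genes), the 6 livers another (13497), and all 12 together a further fit (14615) for differences between experiments. Alternatives were RLE or no factors, other count filters, DESeq2 1.42.0, an adjusted p under 0.01, log2(RPM + 0.5) or log2(RPM + 0.1) tested with limma 3.58.1, the replicate number as a block, other sets of libraries in the fit, each library left out, and, added after seeing the data, edgeR on reads recovered from RPM.

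The annexins, their partners, the repair genes and the markers were chosen with earlier results of these data known. Named beside the 10 members were Anxa9, Anxa10, the 4 genes of the partner and of the repair list with the smallest p in each comparison with an untreated or control group, and the 3 genes nearest to Anxa1, Anxa2, Anxa5 and Anxa6 without Gm, Rik or clone names. Fpr2, S100a10, Plat, Plg, Vps4a, Vps4b and the marker genes were named outside that rule, after their values were seen. Gene positions, exon lengths and overlaps came from GENCODE mouse release M21 (GRCm38), which held 40254 IDs (97.9%), and promoter windows from RefSeq (GRCm38.p6). Levels per kb use the union of annotated exons. Intervals and floors cover counting error only. The tests were also tested on simulated data.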

Additional observations from a re-analysis of the deposited data

Results flagged for a closer look

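Several annexins changed by different amounts in the 2 experiments, by a test of the difference itself. In the fit of all 12 libraries, the peritumoral change minus the TAA change was -6.28 at 48 h and -5.55 at 24 h for Anxa2, -2.60 and -2.54 for Anxa5, and -1.75 and -2.17 for Anxa7, and it was -3.01 at 48 h for Anxa3. Leaving out single libraries ended the calls of Anxa5 at both times and of Anxa7 and Anxa3 at 48 h, but none of Anxa2. Of these, Anxa7 fell in peritumoral hepatocytes and rose at 24 h after TAA, though the rise was not called with all 12 libraries in the fit (adjusted p = 0.0884), while Anxa2 and Anxa5 rose after TAA and did not pass in peritumoral hepatocytes. Stock, preparation and Xist status differ between the experiments and cannot be told apart from the injury.

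Between the times after TAA, the 48 h level was above the 24 h level by 1.35 for Anxa1, 0.76 for Anxa2 and 2.74 for Anxa3 on the log2 scale. The 24 h and 48 h changes share their controls, and these values come from the direct comparison of 2 libraries with 2. No group has the 4 samples that a search for single outlying libraries needs.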

How the results depend on the processing

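Of the values of single annexins under all alternatives, 926 kept direction and side of the threshold, 72 lost the call, 12 gained it and 41 turned round, 6 of them into a called value and 35 with no call before or after. The 6 were Anxa6 and Anxa11 at TAA 48 h, whose values of -0.22 and -0.05 became 0.49 and 0.66 with library totals, 0.50 and 0.65 with limma on log2(RPM + 0.5), and 0.50 and 0.67 with limma on log2(RPM + 0.1). None of these 3 uses TMM factors, which were 1.26 and 1.21 at 48 h and 0.757 and 0.750 in controls. With library totals the higher and lower genes were 7661 and 971 at 48 h (against 3372 and 3226), 6127 and 1228 at 24 h (2877 and 2767), 2593 and 205 in peritumoral hepatocytes (2560 and 1370), 1281 and 181 between the times (670 and 319), and 541 and 1919 for the difference from 48 h (980 and 1253). Of the 35, 18 came with another scaling, test or fit. In peritumoral hepatocytes Anxa4 became 0.016 and Anxa6 0.0088 with library totals, Anxa6 0.0074 with either limma fit and Anxa2 0.00072 with limma at 0.1. At TAA 24 h Anxa6 and Anxa11 became 0.12 and 0.17 with library totals, 0.13 and 0.18 with limma at 0.5 and 0.13 and 0.19 with limma at 0.1, and Anxa11 at 48 h became 0.024 with all 12 libraries in the fit. In the difference from 24 h Anxa6 became -0.11 with library totals, -0.12 with limma at 0.5 and -0.13 with limma at 0.1, and Anxa11 0.0055 with RLE factors and 0.0047 with DESeq2. In the difference from 48 h Anxa13 became -0.17 with limma at 0.5. The other 17 came with a library left out, over ranges of -0.056 to 0.52 for Anxa5 in peritumoral hepatocytes, -0.67 to 1.47 for Anxa13 at 24 h, -0.31 to 0.15 for Anxa11 at 48 h and -0.15 to 0.34 for Anxa5 between the times. Those ranges were -0.80 to 0.18 for Anxa3, -0.094 to 0.32 for Anxa6 and -0.28 to 0.17 for Anxa11 in the difference from 24 h, and -0.24 to 0.17 for Anxa6 and -0.27 to 1.89 for Anxa13 in that from 48 h. Called annexins at 48 h numbered 9 with library totals, where 7661 genes were called higher, and 10 with either limma fit. The share of all genes called higher with limma at 48 h is not given here, so the 10 are not read as a result about the annexins. The 1 lower in peritumoral hepatocytes became 0 with library totals and with both limma fits.

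Of 3930 genes called in peritumoral hepatocytes, 2594 were called with a minimum count of 50, 2538 with limma at 0.5, and 5941 with all 12 libraries in the fit. That fit called 3255 of the 24 h comparison (5644) and 131 between the times (989), with 1 annexin in place of 3 in the last. Between the times 654 were called without a count filter, 1545 by DESeq2 and 1535 by limma at 0.5. At an adjusted p under 0.01 the counts were 1308 (peritumoral), 2862 (24 h), 4159 (48 h, of 6598), 10 (between the times), 551 (difference from 24 h, of 3091) and 260 (difference from 48 h, of 2233), with 1 annexin higher and 0 lower in peritumoral hepatocytes, 0 higher between the times and 1 lower in the difference from 48 h.

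With each library left out, called genes ran from 1359 to 3827 (peritumoral), 2821 to 4842 (24 h), 0 to 1344 (between the times), 551 to 4227 (difference from 24 h) and 293 to 3620 (difference from 48 h). The lowest counts came without untreated replicate 1, TAA 24 h replicate 1, TAA 24 h replicate 2, TAA 24 h replicate 1 and TAA 48 h replicate 1 in that order. Lower annexins ran from 0 to 1 in peritumoral hepatocytes, at 24 h and at 48 h, and from 1 to 5 in the difference from 48 h, and higher ones from 0 to 3 between the times. Where this left 1 library in a group, that library was assumed to vary like the others. The causes were not tested, apart from fewer libraries and scaling by construction.

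Replicate numbers did not pair the hepatocytes (correlations of deviations -0.223, 0.165 and 0.105) or the livers (0.0227 to 0.0266). With the replicate block 2946 genes were called in peritumoral hepatocytes, with 2237 higher and 709 lower, and annexin counts stayed at 3 higher and 1 lower there, 6 higher at 24 h, 5 at 48 h and 3 between the times. Reads recovered from RPM gave 3930, 5644, 6598 and 989 calls. With the longest transcript as length, 31 of 50 group shares of a member moved by more than 1 SD and 19 did not.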
